A study of Mus musculus with 18 samples.

Results

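Inflammasomes are protein platforms that turn the detection of microbial products or cell damage into caspase cleavage. The genes described here are 9 mouse genes of these platforms, chosen by name: the sensors Nlrp3, Aim2, Mefv and Nlrc4, the adaptor Pycard, the inflammatory caspases Casp1 and Casp4, the pore former Gsdmd, and Casp8. Probe sets were taken where the array annotation gives a member as the single gene symbol. That rule found 10 of the 45101 probe sets, for 8 of the 9 genes: 3 for Pycard and 1 for each of the others. No probe set was matched to Nlrc4, which was not analysed here. All 10 probe sets passed the filter on dim signal, against 25775 probe sets for 11721 named genes on the whole array.

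The series holds 18 arrays, 6 at each of 3 times: a zero time that serves as the control, 1 h and 4 h. The design text says that knockout mice received an extract of cell wall, and the series title concerns TLR2, a receptor for bacterial lipoproteins, and production of the cytokine IL-10. Each array's label names immune cells of mice and a time. Genotype, strain, sex, age and the kind of immune cell are not named, so which arrays come from which mice cannot be told, and all 3 groups may share a deletion. A number in each title, here called its code, lies in 1 of 3 ranges, from 12 to 22, from 32 to 37 or from 44 to 54; every range includes 2 arrays per time. What the ranges stand for is not stated, and they are compared below only as ranges. No label says that arrays of one time came from separate animals or cultures, so the p-values measure the spread between these arrays, which may be technical.

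In the canonical inflammasome a sensor such as NLRP3, AIM2, pyrin or NLRC4 recruits the adaptor ASC, which gathers pro-caspase-1. Active caspase-1 cleaves pro-IL-1beta, pro-IL-18 and gasdermin D, whose freed end forms pores in the cell membrane and leads to pyroptosis. In macrophages NLRP3 and pro-IL-1beta are known to be scarce at rest and to need a priming signal, often through Toll-like receptors and NF-kB, while the caspase-4 of mice (also called caspase-11) binds cytosolic lipopolysaccharide.

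The arrays carried strong macrophage signal. Of 15 macrophage markers 13 passed the filter, and their summed signal lay between 217200 and 322200 on all 18 arrays; Csf1r, the receptor for the macrophage growth factor, ranged from 27010 to 51090. Several marker lists of other cells differed between code ranges: the sum of 8 stromal markers (10 listed) was 1003 to 1638, 2751 to 5011 and 10250 to 14720 in codes 12 to 22, 32 to 37 and 44 to 54. In the same order the sum of 6 neutrophil markers (12 listed) was 3281 to 5440, 1618 to 2854 and 777 to 1136, and that of 3 B cell markers (8 listed) was 771.8 to 1844, 301.6 to 579.9 and 183.2 to 422.2. The sums of 3 T cell markers (12 listed; 2609 to 6449, 4683 to 11250 and 4605 to 5698) and of 2 NK cell markers (8 listed; 137.6 to 205.2, 100.8 to 222.4 and 115.6 to 200.4) overlapped between the ranges. At 4 h the T cell sum spread from 2609 to 11250. Most of that sum was Il7r (2194 to 10980 over the 18 arrays). Cd3e, Cd3d, Cd3g and Cd4 fell below the filter, so the sum is no measure of T cell content. The sum of 4 dendritic cell markers (10 listed) moved with time: 259.3 to 430.9 at 0 h, 246.1 to 545.5 at 1 h and 473.3 to 772 at 4 h. No marker was at exactly 0, and the part of these shifts in the results below was not tested. In such bulk samples fewer cells of a type and less RNA per cell cannot be told apart. Values are the array software's linear signal, scaled by the authors; fold changes are differences in mean log2(signal + 16), tested with limma and called at a Benjamini-Hochberg adjusted p under 0.05 over all 25775 probe sets.

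Nlrp3, the sensor of potassium loss and other membrane disturbance, had the largest 4 h change of the 8 genes. Its signal was 327, 452 and 592 (lowest, median and highest of 6 arrays) at 0 h, 518, 1475 and 1954 at 1 h, and 2149, 3606 and 10167 at 4 h. The 4 h arrays lay above all arrays of both earlier times; at 1 h, 5 of the 6 arrays lay above all 0 h arrays, and the array with code 14 lay among them. At 4 h against 0 h the log2 fold change was 3.11 ± 0.35 (SE, n = 6 per time; 8.65-fold; limma, adjusted p = 3.48e-06). At 1 h it was 1.48 ± 0.35 (2.79-fold) and missed the threshold (limma, adjusted p = 0.0573). Without the array of code 14 it was 1.73 (adjusted p = 0.00464). It also passed without the 4 h arrays of code 37 or 16 (adjusted p = 0.0469 and 0.0208), where the value itself stayed at 1.48. These were 3 of the 18 fits that left out 1 array. Across all alternatives over the 3 code ranges the adjusted p ran from 0.00464 to 0.166.

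Mefv, which encodes pyrin, the sensor of inactivated RhoA and the gene of familial Mediterranean fever, had a similar course. Its signal was 210, 301 and 426 at 0 h, 285, 893 and 1013 at 1 h, and 790, 1156 and 3089 at 4 h. The 4 h arrays were all above the 0 h arrays but overlapped with those at 1 h, where the array with code 14 was again the lowest. The rise at 4 h against 0 h was 2.11 ± 0.34 on the log2 scale (4.32-fold; limma, adjusted p = 1.31e-04). At 1 h the value was 1.19 ± 0.34 (adjusted p = 0.168), and 1.45 without the array of code 14 (adjusted p = 0.0153). Aim2, the sensor of cytosolic double-stranded DNA, did not pass the test at either time. Its signal of 170 to 460 at 0 h, 218 to 578 at 1 h and 167 to 470 at 4 h overlapped throughout. The 4 h difference was -0.25 on the log2 scale, with a 95% interval from -0.81 to 0.31 (limma, adjusted p = 0.502).

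**Figure D1:**
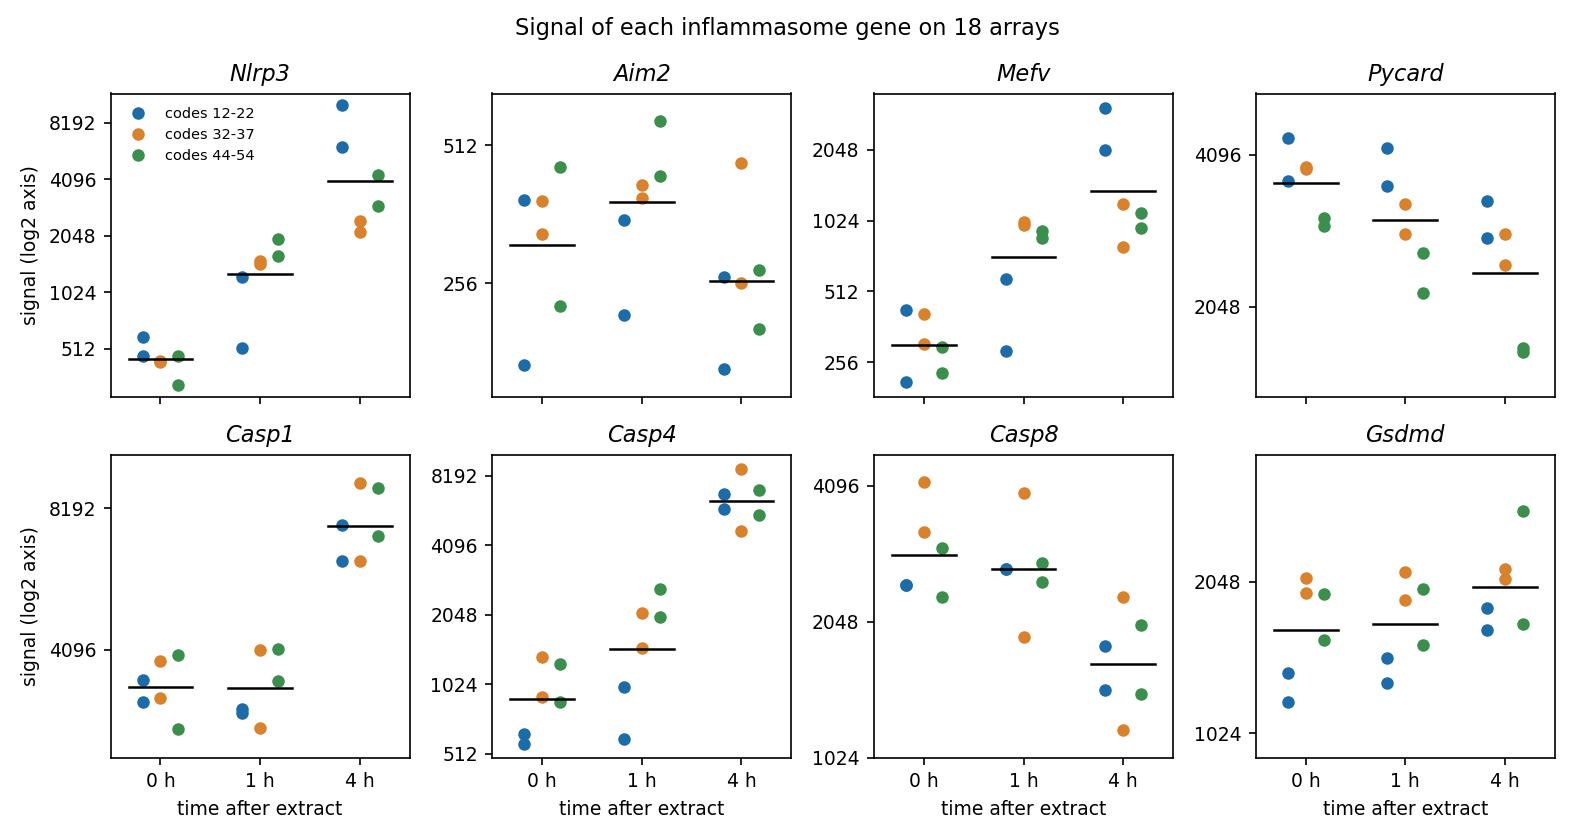
Signal of the 8 genes on a log axis (array units) at 0, 1 and 4 h, 1 point per array with 6 arrays per time, colours for the 3 code ranges and a bar for the mean log2 value. All 4 h arrays of Nlrp3, Casp1, Casp4 and Mefv lie above their 0 h arrays, and those of Casp8 lie below.

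Pycard, the adaptor ASC, went the other way. The brightest of its 3 probe sets read 2960, 3736 and 4430 at 0 h, 2178, 3063 and 4232 at 1 h, and 1662, 2636 and 3312 at 4 h. The groups overlapped at every pair of times. At 4 h it was lower by 0.59 ± 0.19 on the log2 scale (-0.59; limma, adjusted p = 0.0246). The other probe sets, both dim at 15.3 to 184, gave -0.68 (adjusted p = 0.0888) and -1.04 (adjusted p = 0.00871). The Pycard call was lost when arrays were scaled to a common median (-0.29, adjusted p = 0.394), with no filter (adjusted p = 0.0525), and without the array of code 18, 49 or 46 (adjusted p = 0.0563, 0.0608 and 0.0631). It was also lost within codes 12 to 22 or 32 to 37 alone (adjusted p = 0.146 and 0.0653). The call held within codes 44 to 54 (adjusted p = 0.00753). With the code range as a block it passed too (limma, adjusted p = 3.46e-04 as a fixed and 0.00209 as a random block).

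Casp1, the protease that matures IL-1beta and IL-18, was bright before treatment and rose late. Its signal was 2778, 3389 and 3993 at 0 h, 2797, 3291 and 4109 at 1 h, and 6335, 7339 and 9245 at 4 h. The 0 h and 1 h arrays covered the same range, and all 6 arrays at 4 h were above both. The log2 fold change was -0.01 ± 0.14 at 1 h, with a 95% interval from -0.31 to 0.29 (limma, adjusted p = 1), and 1.14 ± 0.14 at 4 h against 0 h (2.20-fold; limma, adjusted p = 1.10e-05).

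Casp4, the lipopolysaccharide-binding caspase of the noncanonical pathway, had a steeper late rise. Its signal was 567, 882 and 1351 at 0 h, 593, 1737 and 2639 at 1 h, and 4718, 6360 and 8791 at 4 h. No 4 h array overlapped with either earlier time, while the 1 h arrays spread across and above the 0 h range. The rise at 4 h against 0 h was 2.83 ± 0.31 on the log2 scale (7.10-fold; limma, adjusted p = 2.94e-06); the 1 h value was 0.72 ± 0.31 (adjusted p = 0.627). Casp1 and Casp4 lie on chromosome 9, their RefSeq start sites at 5298517 and 5308849 (GRCm38.p6, + strand), and both rose at 4 h. Whether their position plays a part was not tested.

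The stretches just before the start sites of Casp4 and Nlrp3 are shown because these genes had the largest rises at 4 h among the 8. Both come from RefSeq (GRCm38.p6), which held an entry for 8 of the 9 genes, Nlrc4 included and Gsdmd not. Each is the 250 bases that end before the start, Casp4 at chr9:5308599-5308848 and Nlrp3 (the first of its 2 listed start sites) at chr11:59541319-59541568, both on the + strand; capitals mark matches, on either strand, to an NF-kB motif written as GGG, any 2 bases, TT, any base and CC.
Casp4: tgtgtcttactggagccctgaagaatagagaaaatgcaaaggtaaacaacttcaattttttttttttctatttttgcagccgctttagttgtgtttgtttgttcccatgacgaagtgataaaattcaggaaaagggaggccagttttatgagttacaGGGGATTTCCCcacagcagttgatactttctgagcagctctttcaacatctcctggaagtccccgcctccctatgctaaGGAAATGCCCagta
Nlrp3: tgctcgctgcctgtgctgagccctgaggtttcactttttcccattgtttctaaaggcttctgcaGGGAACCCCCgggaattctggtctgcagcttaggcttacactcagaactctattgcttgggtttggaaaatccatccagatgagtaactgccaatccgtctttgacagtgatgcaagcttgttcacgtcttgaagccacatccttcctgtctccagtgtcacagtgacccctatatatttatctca
Casp4 holds 3 matches, of which GGGGATTTCC and GGGATTTCCC overlap, starting 93 and 92 bases before the start, and GGAAATGCCC, on the other strand, starts 14 bases before it. The match in Nlrp3, GGGAACCCCC on the other strand, starts 186 bases before the start. The window before the other listed start of Nlrp3 held no NF-kB match. Such a match stood in 4.11% of the 32851 windows of this length. The interferon-response motif, GAAA, any 2 bases and GAAA (2.98% of windows), and the AP-1 letters TGANTCA (6.75%) matched in no member. The ETS letters GAGGAA (23.3%) matched before Casp1, Pycard, Aim2 and the other start of Nlrp3, and Casp8, Mefv and Nlrc4 held none of the 4. These are matches of letters, not known binding sites.

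Casp8, which starts apoptosis below death receptors, restrains necroptosis and can be recruited to ASC, was lower at 4 h. Its signal was 2317, 2727 and 4169 at 0 h, 1892, 2675 and 3940 at 1 h, and 1176, 1630 and 2316 at 4 h. Every 4 h array was below every 0 h array, although the highest 4 h value came close to the lowest at 0 h. The 4 h difference was -0.79 ± 0.20 on the log2 scale (1.73-fold lower; limma, adjusted p = 0.00452). With a common median per array it was -0.50 and no longer passed (adjusted p = 0.126). Gsdmd, the pore former, read 1184, 1756 and 2087 at 0 h, 1289, 1708 and 2143 at 1 h, and 1642, 1948 and 2834 at 4 h, with overlap at every step. Its 4 h difference of 0.28 had a 95% interval from -0.09 to 0.65 (limma, adjusted p = 0.241) but passed with a common median (0.58, adjusted p = 0.0346). The scaling matters at 4 h because the median array signal was 74.7 to 87.5 there against 86.2 to 108.1 at the earlier times. The median change of all 11721 genes was -0.19 as deposited and 0.09 with a common median, and the split of higher against lower genes went from 1347 and 2801 to 2319 and 1135.

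Counted together, 4 of the 8 genes (Nlrp3, Mefv, Casp1 and Casp4) passed the test as higher at 4 h against 0 h, where 11.5% of all genes did, and 2 of 8 (Casp8 and Pycard) as lower, where 23.9% of all genes did. The latter share is near that of all genes. The groups did not overlap for 4 genes that were higher (6.78% of all genes) and for 1 that was lower, Casp8 (12.7%). The median log2 fold change was 0.71 over the 8 genes and -0.19 over all genes. At 1 h none of the 8 passed limma's test, against 0.614% of all genes higher and 0.0341% lower; Nlrp3, Mefv and Casp4 had an unadjusted p under 0.05, as had 1761 of the 25775 probe sets. The median was 0.17 over the 8 genes and -0.02 over all genes.

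**Figure D2:**
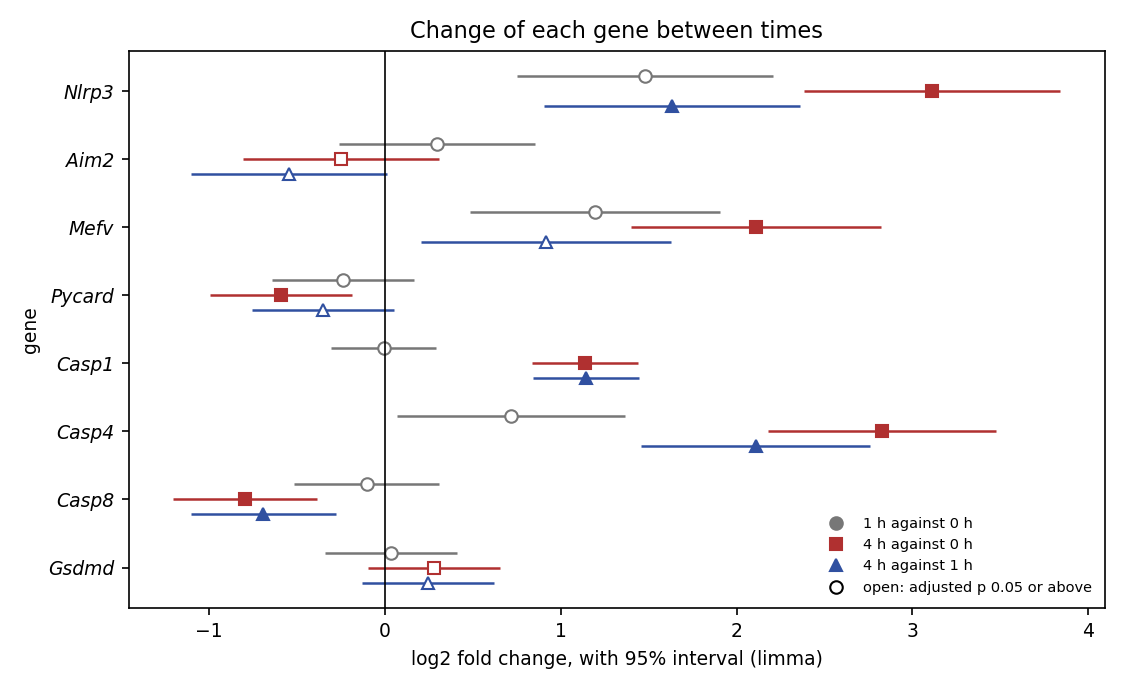
Log2 fold changes of the 8 genes (rows) at 1 h against 0 h, 4 h against 0 h and 4 h against 1 h, points for the estimate (open where the adjusted p was not under 0.05) and lines for the 95% interval of the limma fit over 18 arrays. The 4 h points reach 3.11 for Nlrp3 and 2.83 for Casp4, while the 1 h interval of Casp1 is centred on -0.01.

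Between 1 h and 4 h the members parted further. Casp4 rose by 2.11 ± 0.31 on the log2 scale (limma, adjusted p = 9.03e-05), Nlrp3 by 1.63 ± 0.35 (adjusted p = 0.00223) and Casp1 by 1.14 ± 0.14 (adjusted p = 1.78e-05). These were 3 of 8 genes called higher, against 9.04% of all genes, and their 1 h and 4 h arrays did not overlap, as for 4.5% of all genes; 0 were wholly lower (8.32%). Casp8 was the 1 of 8 called lower, at -0.69 (adjusted p = 0.0147), against 18.9% of all genes. With a common median it was -0.41 (adjusted p = 0.231), and it passed within no single code range (limma, adjusted p = 0.205, 0.248 and 0.312). Mefv gave 0.92 ± 0.34 and missed the threshold (adjusted p = 0.0561); it passed without the array of code 36, 49 or 37 (adjusted p = 0.0482, 0.0483 and 0.0299). Of the 4 h change on the log2 scale, 47.5% was present at 1 h for Nlrp3 and 56.6% for Mefv, against 25.4% for Casp4 and -0.607% for Casp1. These shares share the 0 h arrays and carry no test.

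The level of 3 genes differed between code ranges when time was in the fit. Gsdmd read 1184, 1396 and 1819 (lowest, median and highest of 6) in codes 12 to 22, 1882, 2082 and 2169 in codes 32 to 37, and 1534, 1814 and 2834 in codes 44 to 54. The first of these ranges lay wholly below the second, a separation whose share over all genes was not counted. The difference of 32 to 37 from 12 to 22 was 0.50 ± 0.13 (limma, adjusted p = 0.0117), that of 44 to 54 from 12 to 22 was 0.38 ± 0.13 (adjusted p = 0.0433). Pycard read 2798, 3595 and 4430 in codes 12 to 22, 2474, 3063 and 3874 in codes 32 to 37, and 1662, 2396 and 3075 in codes 44 to 54. The last range was the lowest, with overlap, by -0.65 ± 0.11 from codes 12 to 22 (adjusted p = 4.18e-04) and by -0.45 ± 0.11 from codes 32 to 37 (adjusted p = 0.00711). The dim Pycard probe sets did not pass: 1 gave -0.45 and 0.04 (adjusted p = 0.29 and 0.949) and the other 0.18 and 0.28 (adjusted p = 0.714 and 0.554). Casp4 was 0.78 ± 0.25 higher in codes 44 to 54 than in codes 12 to 22 (adjusted p = 0.0361); within single times that difference was 0.79 at 0 h, 1.56 at 1 h and -0.016 at 4 h.

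Counted by range, 1 of 8 genes was higher in codes 32 to 37 than in 12 to 22, where 11.7% of all genes were, and 0 of 8 were lower (8.99%). In codes 44 to 54 against 12 to 22, 2 of 8 were higher (11% of all genes) and 1 was lower (11.4%). In codes 44 to 54 against 32 to 37, 1 was lower (11.4%) and 0 were higher (9.51%). These are small counts near the shares of all genes. In codes 44 to 54 against 12 to 22, the Casp4 call was kept in 10 of the 18 fits that left out 1 array and lost without code 44, 18, 12, 54, 51, 20, 14 or 46 (0.60 to 0.81, adjusted p from 0.0518 to 0.0882). The Gsdmd call was kept in 9 and lost without code 35, 44, 18, 12, 51, 20, 14, 46 or 22 (0.29 to 0.40, adjusted p from 0.0537 to 0.0997). The Pycard call in the same comparison and that of Gsdmd in codes 32 to 37 against 12 to 22 were kept in all 18. Within single times, on 2 arrays per group, that Gsdmd difference did not pass. It was 0.67 at 0 h, 0.55 at 1 h and 0.29 at 4 h (limma, adjusted p = 0.161, 0.226 and 0.522). Within 4 h alone Nlrp3 was lower in codes 32 to 37 than in 12 to 22 (-1.76; limma, adjusted p = 0.0162). The stromal, neutrophil and B cell marker sums given above moved with the same ranges, and their part in these differences was not tested.

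The time course itself looked different in codes 12 to 22. There Nlrp3 read 465 and 592 at 0 h, 518 and 1230 at 1 h, and 6041 and 10167 at 4 h. In codes 32 to 37 the pairs were 437 and 438, then 1449 and 1502, then 2149 and 2461. In codes 44 to 54 they were 327 and 470, then 1597 and 1954, then 2933 and 4279. Codes 12 to 22 thus had the lowest pair at 1 h and the highest at 4 h, with no overlap with either other range at both times. How many of all genes had such an order of pairs was not counted, here or for Mefv below.

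For Mefv too, codes 12 to 22 had the lowest pair at 1 h and the highest at 4 h. In codes 12 to 22 it read 210 and 426, then 285 and 577, then 2045 and 3089. In codes 32 to 37 the pairs were 306 and 411, then 984 and 1013, then 790 and 1208, and in codes 44 to 54 they were 229 and 297, then 863 and 923, then 955 and 1104. From 1 h to 4 h the log2 change of Mefv was 2.58 in codes 12 to 22, -0.03 in codes 32 to 37 and 0.20 in codes 44 to 54; for Nlrp3 these changes were 3.27, 0.64 and 1.00. For Casp4 they were 3.02, 1.87 and 1.44, and for Casp1 they were 1.18, 1.18 and 1.08.

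**Figure D3:**
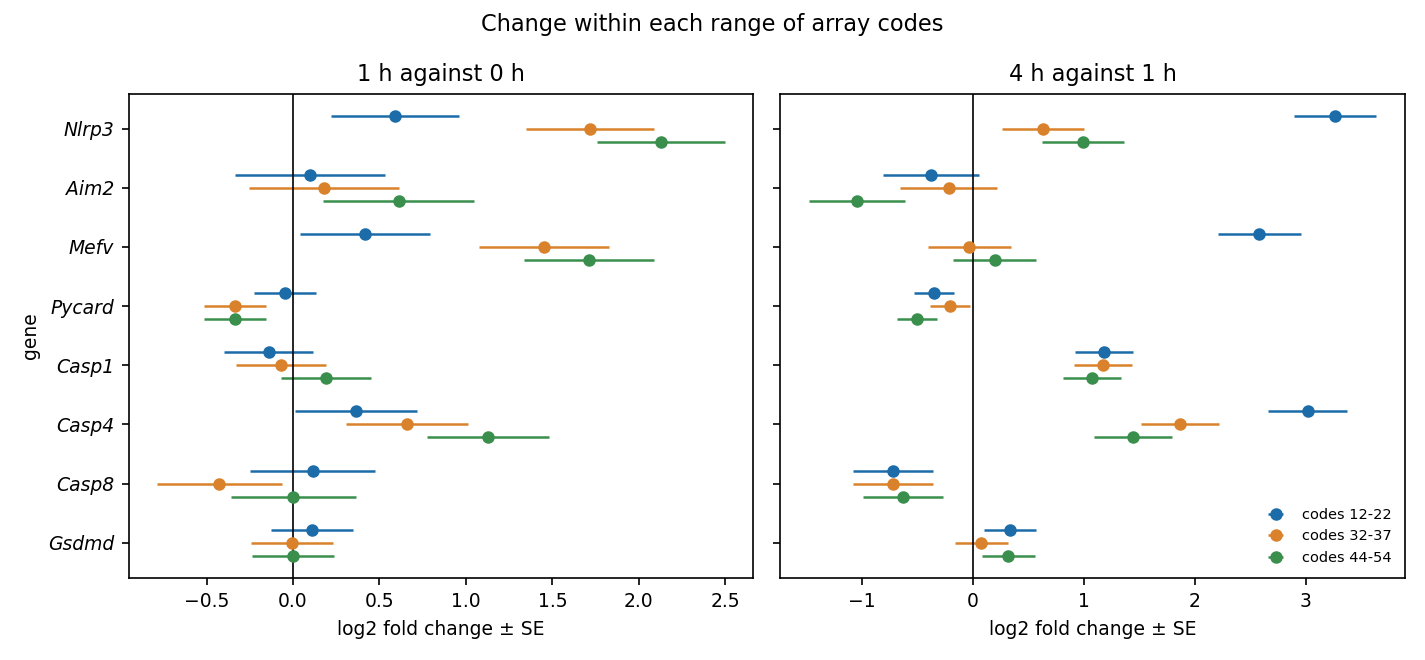
Log2 fold changes of the 8 genes (rows) within each code range, at 1 h against 0 h and at 4 h against 1 h, with points for the estimate from 2 arrays per time and lines for ± 1 SE. In codes 12 to 22 Nlrp3 and Mefv have the smallest values at 1 h (0.59 and 0.42) and the largest from 1 h to 4 h (3.27 and 2.58), while the points of Casp1 lie at 1.18, 1.18 and 1.08.

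A contrast of the 4 h minus 1 h change between ranges was added after these values had been seen. Because the values prompted it, its p-values are no independent evidence. For codes 32 to 37 against 12 to 22 it was -2.63 ± 0.52 on the log2 scale for Nlrp3 (limma, adjusted p = 0.0256) and -2.61 ± 0.53 for Mefv (adjusted p = 0.0287). These are 2 of 8 genes called lower, against 1.05% of all genes. For codes 44 to 54 against 12 to 22 it was -2.27 (adjusted p = 0.111) and -2.38 (adjusted p = 0.1), and neither passed (0.128% of all genes did); without the array of code 20 both did (adjusted p = 0.0182 and 0.0351). Casp4 gave -1.15 (adjusted p = 0.364) and -1.58 (adjusted p = 0.282) against codes 12 to 22, with an unadjusted p of 0.0405 and 0.00838. Across all alternatives over the 3 ranges the first pair's adjusted p ran from 0.00454 to 0.105 for Nlrp3 and from 0.00682 to 0.116 for Mefv; both calls were lost without the array of code 36, 33, 14, 37 or 16, and that of Nlrp3 without code 34 too. Without code 14 the values were -2.02 and -2.12 (adjusted p = 0.0698 and 0.104). The planned contrasts of the response at 4 h or at 1 h against 0 h called none of the 8 genes between any pair of ranges (limma). Of all genes, in either direction, the 4 h response was called for 1.83% (codes 32 to 37 against 12 to 22), 0.0597% (44 to 54 against 12 to 22) and 0.0171% (44 to 54 against 32 to 37), and the 1 h response for 0.00853%, 0% and 0% in the same order. In the first of the 4 h contrasts Nlrp3 gave -1.51 (adjusted p = 0.238) and Mefv -1.58 (adjusted p = 0.217), both with an unadjusted p under 0.05, as had 3091 of the 25775 probe sets. For 1 h in codes 44 to 54 against 12 to 22, 2 members had such a p, as had 760 of the 25775 probe sets; in the other 4 contrasts 0 members did.

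Around the members, 78 other genes of the pathway had been listed in 5 groups; 58 were tested, 8 fell below the filter and 12 had no probe set with a single symbol. At 4 h against 0 h, 23 of the 58 were higher and 13 lower, with a median of 0.29, where 11.5% and 23.9% of all genes were called; the share lower is near that of all genes. With a common median per array the counts were 28 and 7 and the median 0.58. On that scale 2319 of all 11721 genes were higher and 1135 lower, so the shares as deposited do not apply to it. The same holds for the common median counts of each list below. The substrates, cytokines and pore genes had the highest median: 5 of 8 were higher and 0 lower, with a median of 0.91. Il1b and Il1a, the cytokine precursors, rose by 5.78 and 5.24 on the log2 scale (limma, adjusted p under the threshold for each gene called here), and Il1rn, their receptor antagonist, by 4.42. At 0 h Il1a read only 4.1 to 30.7, below the array medians of 86.2 to 108.1 at 0 h and 1 h. The size of its rise thus depends on the 16 added to each signal. Outside the naming rule and chosen after their values were seen, Il18, the other caspase-1 substrate, rose by 0.80 and Ninj1, which ruptures the membrane after pore formation, by 1.01.

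The other sensors went both ways, 4 of 10 higher and 5 lower, against 11.5% and 23.9% of all genes. Their median was -0.07 (5 higher and 2 lower, with a median of 0.22, on the common median scale). Ifi204 (1.23) and Mndal (1.18), relatives of Aim2, rose, and Nlrp10 fell by 1.93. Nlrp10 was dim, at 65.8 to 190 at 0 h and 1.5 to 48.8 at 4 h. The latter is below the 4 h array medians (74.7 to 87.5), so the size of its fall is uncertain. The Naip genes encode the ligand receptors for NLRC4; chosen after their values were seen, Naip2 (-0.42), Naip5 (-1.03) and Naip6 (-0.58) were all called lower, of which Naip5 alone passed with a common median (-0.73, adjusted p = 0.013); these near-identical copies may share probes and are uncertain. Of 19 regulators of assembly 7 were higher and 5 lower, with a median of 0.20 (8 and 2 with a common median). The share lower is near the 23.9% of all genes, while 11.5% of all genes were higher. Gbp2, a GTPase that coats bacteria and opens them to caspase-4, rose by 2.99, and Irf1, which drives Gbp genes, by 2.44. Txnip, a thioredoxin inhibitor that binds NLRP3, fell by 2.55 (-2.55), and P2rx7, the ATP receptor upstream of NLRP3, again chosen after its value was seen, by 1.53.

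Of 10 other caspases and their inhibitors, 3 were higher and 3 lower, with a median of -0.02 (0.25 on the common median scale, with the same counts). As deposited, 11.5% of all genes were higher and 23.9% lower at 4 h, and the count lower here is near that share. Birc3, a ubiquitin ligase that limits cell death, rose by 1.96, while Casp2 fell by 1.87 and Casp9, the caspase of the apoptosome, by 1.33. Among 11 partners of caspase-8, 4 were higher and 0 lower, with a median of 0.31. On the common median scale the counts were 7 and 0 (median 0.61), and after quantile normalization 6 and 0 (median 0.46). Shares of all genes after quantile normalization are not given here. Fas, a death receptor, rose by 3.60, Cflar, the inhibitor that pairs with caspase-8, by 3.11 and Traf2 by 1.25. Caspase-8 itself was lower at the same time, as given above. At 1 h, 3 of the 58 had passed as higher (Irf1, Il1b and Cflar) and none as lower, against 0.614% and 0.0341% of all genes.

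**Figure D4:**
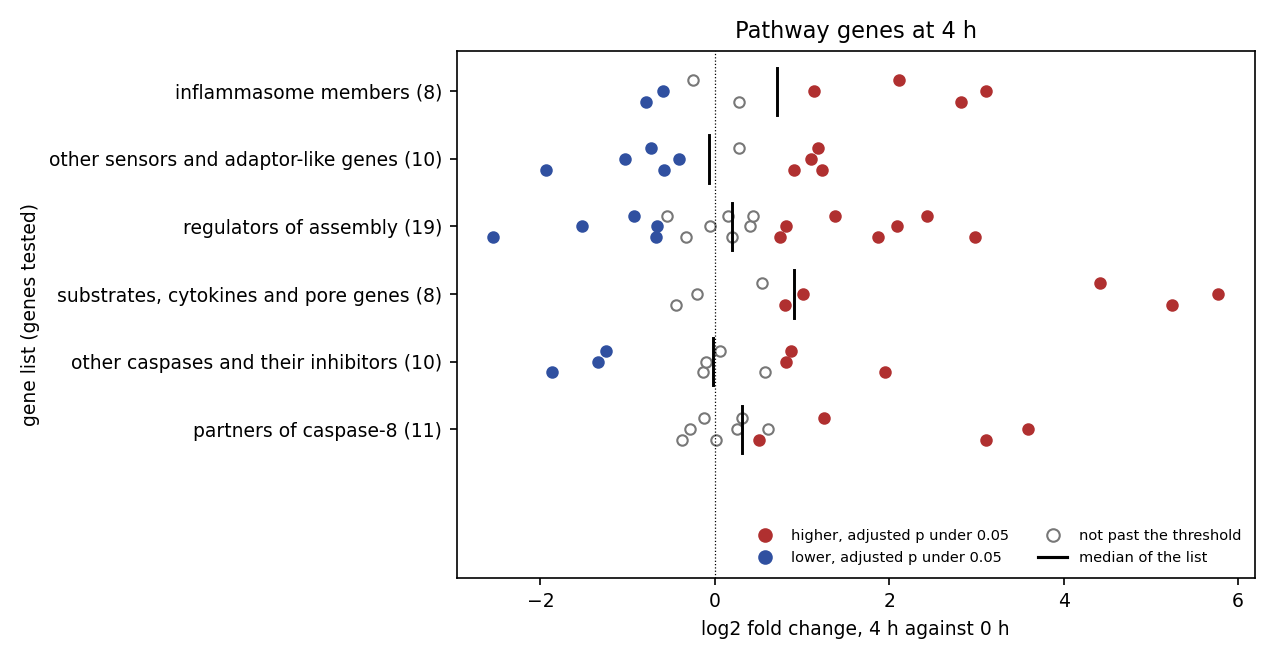
Log2 fold change at 4 h against 0 h (horizontal axis) of each tested gene, in rows by list with the number of genes tested, filled red or blue where limma called it higher or lower and open where it did not; bars mark each list's median. The largest values are those of Il1b, Il1a and Il1rn, at 5.78, 5.24 and 4.42, and Nlrp3 and Cflar both reach 3.11.

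Over the 18 arrays the profile most like that of Nlrp3, by Pearson's r of log2 values among 11720 other genes, was that of Il1a (r = 0.968), followed by Nfkbib (0.967). Il1a also led for Mefv (0.9585), and Nlrp3 and Mefv followed each other (r = 0.94, and 0.81 after each time's mean was removed). Casp1 was closest to Nampt (0.975) and Casp4 to Lcp2 (0.981). Casp8 was closest to Zbed4 (0.977), Pycard to Dpy30 (0.937), Gsdmd to Tapbp (0.887) and Aim2 to Tecpr2 (0.794). These coefficients describe points that share the time course and the code ranges, and they carry no test. Il1a lay below the array medians at 0 h, as given above.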

How the data were processed

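RNA was measured on 18 mouse arrays, 6 each at 0, 1 and 4 h. The authors deposited 1 linear signal intensity per probe set and array, made with MAS5 and GCOS per the submitters' processing notes; their versions are not stated there. Scaling was already done, and the number of arrays limits the precision. With R 4.3.3 and limma 3.58.1, log2(signal + 16) was fitted with a mean per time over all 18 arrays, for probe sets above their array's median on at least 4 arrays, controls left out. Code ranges were compared with time in the fit, and responses between ranges in a fit with a mean per time and range. Benjamini-Hochberg adjustment ran over all 25775 probe sets; counts of genes use the brightest probe set per gene (11721 genes). The fits were checked on simulated data with independent noise. Apart from planted changes these held no differences between code ranges, which the arrays do have. The platform annotation gave 34945 probe sets a single symbol, 932 several and 9160 none. All members were named; from each pathway list, the 3 called genes with the largest change at 4 h. Members and lists were chosen with earlier results of these data known. Promoter windows came from RefSeq, without the bases after the start. Alternatives changed the pseudocount (1, 64), filter, scaling, priors, code range as a block, single ranges or times, and each array left out.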

Additional observations from a re-analysis of the deposited data

Results flagged for a closer look

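At 1 h the array with code 14 (1 h replicate 6) read 518 for Nlrp3, while the other 5 arrays lay between 1230 and 1954; on the log2 scale, the gap was 0.649 of the whole range, and on the signals themselves 0.496, which would not single it out. It was the only far array among 30 groups of 6 examined, and chance alone marks about 1 in 20 such groups. The same array was the lowest at 1 h for Casp4, Mefv and Aim2.

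A contrast of the change from 1 h to 4 h between code ranges was built after the values by range had been seen, so it restates what prompted it. For codes 32 to 37 against 12 to 22 it was -2.63 on the log2 scale for Nlrp3 and -2.61 for Mefv (limma, adjusted p = 0.0256 and 0.0287), with the array of code 14 among those of codes 12 to 22. The calls were lost in 8 and 7 of 25 alternatives. For codes 44 to 54 the values were -2.27 and -2.38 against codes 12 to 22 (adjusted p = 0.111 and 0.1), and 0.36 and 0.23 against codes 32 to 37 (adjusted p = 1 for both).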

How the results depend on the processing

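The calls of Nlrp3, Casp1, Casp4 and Mefv at 4 h against 0 h kept their direction and passed in all 30 settings run for each. Over members and comparisons, 3100 of 3198 values under alternatives stayed on their side of the threshold, 65 lost the call and 32 gained one. Of the 3100, 142 changed sign, none of them past the threshold in either fit, and 1 called value reversed: Casp4 in codes 44 to 54 against 12 to 22 was -0.016 within 4 h. At 1 h, 1 member (Nlrp3) instead of 0 passed with a pseudocount of 64, a filter of 9 arrays, quantile normalization, a common median, other priors, the range as a random block, or codes 44 to 54 alone; leaving out single arrays gave 0 to 2, with 2 only without code 14. Pathway genes called at 1 h, 3 in the report, were 5 with the filter of 9 arrays, quantile normalization or the random block, 1 without filter or within codes 44 to 54, 0 within codes 12 to 22, and 0 to 6 with arrays left out.

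At 4 h against 0 h leaving out arrays gave 5 to 6 members and 32 to 36 pathway genes (36 in the report; 20 within codes 32 to 37). At 4 h against 1 h it gave 4 to 6 members (4 in the report; 2 within codes 32 to 37 and 2 within codes 44 to 54) and 24 to 28 pathway genes (26; 10 within codes 32 to 37). In codes 32 to 37 against 12 to 22, 1 member passed, 2 with other priors, 0 within 0 h or 1 h, and 1 to 2 with arrays left out. Within 4 h the member that passed was Nlrp3, not Gsdmd. Pathway genes in this comparison were 16, and 5, 9 and 9 within 0, 1 and 4 h (13 to 19 with arrays left out). In codes 44 to 54 against 12 to 22, 3 members passed, 1 without filter, with a common median or within 4 h, 0 within 0 h, and 1 to 3 with arrays left out; pathway genes were 13, 7 without filter, 0, 5 and 6 within 0, 1 and 4 h, and 10 to 17 with arrays left out. In codes 44 to 54 against 32 to 37, 1 member passed, 0 within each time; pathway genes were 13, 6 without filter, 3, 0 and 1 within 0, 1 and 4 h, and 7 to 13 with arrays left out. The added contrast called 2 members, 0 without filter or with a common median, and 0 to 2 with arrays left out (0 without code 36, 33, 14, 37 or 16, and 1 without code 34).

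With the range as a fixed block, Pycard at 4 h against 1 h passed (adjusted p = 0.017); without code 37 Aim2 did (-0.71, adjusted p = 0.0496), and without code 37 or 16 Casp4 in codes 32 to 37 against 12 to 22 did (adjusted p = 0.0273 and 0.0335). No paired analysis was possible because replicate numbers were given in accession order and no label ties an array of one time to one of another. The cause of these changes was not tested. Fits within 1 range or time rest on 2 arrays per group, so fewer calls there come with fewer arrays.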
